A study of Mus musculus with 9 samples.

Results

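The expression of 10 transcription factors of epidermal differentiation was examined in mouse back skin: Trp63, Grhl1, Grhl3, Klf4, Gata3, Ovol1, Ppard, Prdm1, Zfp750 and Tfap2a. They were taken by gene symbol from the 29205 genes of the deposited table, and each symbol matched 1 gene. RNA-seq libraries came from male BALB/c mice aged 6 to 8 weeks whose backs had been shaved and treated with depilatory cream, so hair removal was common to all groups. The control group received no imiquimod cream by the methods of the study. Its labels say only control, and whether it received a vehicle is not stated. The IMQ group received 62.5 mg of imiquimod cream (5%) on the back skin each day for 5 days. Imiquimod is a Toll-like receptor agonist whose cream gives psoriasis-like lesions in mouse skin. The LYS group received the same cream and the herbal decoction Longkui Yinxiao soup, for which the labels give no dose. By the methods of the study the decoction was given intragastrically and the sequenced animals were its high-dose LYS group. Each group had 3 libraries of back skin collected on day 13, which makes 9 libraries with 14658645 to 19609878 counted reads each. The labels do not say that the 3 libraries of a group came from separate mice, so the p-values measure the spread between these libraries, which may be technical. Whole skin was sequenced, and fewer cells of a type and less RNA per cell cannot be told apart in such samples.

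The epidermis is renewed by basal keratinocytes, which leave the basement membrane, switch from basal to suprabasal keratins and end as cornified cells that seal the skin. Trp63 is needed to form and keep the stratified epithelium, and it acts upstream of several of the other factors, among them Zfp750. Grhl3, Klf4, Ovol1, Prdm1 and Zfp750 act mainly in suprabasal cells, where they drive late differentiation and barrier formation or shut down the basal programme.

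The 10 factors are protein-coding genes placed here on GRCm38 with GENCODE M21. Trp63 (ENSMUSG00000022510, chr16:25683763-25892102, plus strand) encodes p63, the p53 relative that specifies stratified epithelium. Grhl1 (ENSMUSG00000020656, chr12:24572283-24617391, plus strand) and Grhl3 (ENSMUSG00000037188, chr4:135541888-135573630, minus strand) encode grainyhead-like factors, which control desmosomal genes and barrier formation, respectively. Klf4 (ENSMUSG00000003032, chr4:55527143-55532466, minus strand) encodes a Krüppel-like factor without which the skin barrier does not form. Gata3 (ENSMUSG00000015619, chr2:9857078-9890034, minus strand) encodes a zinc finger factor of epidermal lipid synthesis and of the hair inner root sheath, and it is also a factor of T cells. Ovol1 (ENSMUSG00000024922, chr19:5549136-5560646, minus strand) encodes a zinc finger repressor that restrains keratinocyte growth. Ppard (ENSMUSG00000002250, chr17:28232700-28301474, plus strand) encodes a fatty acid-activated nuclear receptor. Prdm1 (ENSMUSG00000038151, chr10:44437177-44528501, minus strand) encodes the repressor Blimp1, which acts in terminal differentiation of the epidermis and of plasma cells. Zfp750 (ENSMUSG00000039238, chr11:121510978-121519333, minus strand) encodes a zinc finger factor downstream of p63. Tfap2a (ENSMUSG00000021359, chr13:40715302-40738376, minus strand) encodes AP-2 alpha, a regulator of keratinocyte growth and differentiation genes. Exons of Ovol1, Tfap2a and Gata3 share sequence with antisense or neighbouring genes, and the largest of these overlaps was the 19.8% of the Ovol1 exon length shared with the antisense pseudogene Gm31166. The counting strand is not given in the sources used here, so reads from those stretches cannot be assigned to either gene.

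Promoter sequences are shown for 4 factors that were called higher than control in both treated groups, to set their start regions beside each other. Each is the stretch of 250 bases directly before the RefSeq transcription start on GRCm38.p6, and capitals mark matches to the motifs that were searched. The set of RefSeq promoter entries used here covered 7 of the 10 factors and held none for Ovol1, Trp63 and Zfp750. In the Grhl3 promoter (chr4:135573633-135573882, minus strand) the capitals are the CACCC box bound by Krüppel-like factors, which began 117, 109 and 76 bases before the start. In the Klf4 promoter (chr4:55532476-55532725, minus strand) and the Ppard promoter (chr17:28232504-28232753, plus strand) they are the AP-2 pattern GCCNNNGGC, which began 9 and 59 bases before the start. In the Prdm1 promoter (chr10:44458749-44458998, minus strand) they are the AP-1 pattern TGANTCA, which began 48 bases before the start. This RefSeq start of Prdm1 lies 69753 bases inside the gene as GENCODE M21 draws it.
Grhl3: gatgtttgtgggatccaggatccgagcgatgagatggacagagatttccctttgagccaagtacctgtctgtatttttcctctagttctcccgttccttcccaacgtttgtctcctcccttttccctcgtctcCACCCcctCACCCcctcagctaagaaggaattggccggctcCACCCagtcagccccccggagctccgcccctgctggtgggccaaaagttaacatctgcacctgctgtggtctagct
Klf4: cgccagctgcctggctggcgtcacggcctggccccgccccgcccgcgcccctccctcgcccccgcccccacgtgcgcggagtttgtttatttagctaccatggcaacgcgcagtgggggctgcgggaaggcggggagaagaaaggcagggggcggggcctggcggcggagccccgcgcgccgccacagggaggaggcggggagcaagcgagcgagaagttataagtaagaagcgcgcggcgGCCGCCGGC
Ppard: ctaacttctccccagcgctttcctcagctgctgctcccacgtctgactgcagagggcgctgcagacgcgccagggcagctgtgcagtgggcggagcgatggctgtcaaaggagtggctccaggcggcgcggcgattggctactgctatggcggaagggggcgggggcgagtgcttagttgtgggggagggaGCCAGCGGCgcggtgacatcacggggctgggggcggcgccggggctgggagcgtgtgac
Prdm1: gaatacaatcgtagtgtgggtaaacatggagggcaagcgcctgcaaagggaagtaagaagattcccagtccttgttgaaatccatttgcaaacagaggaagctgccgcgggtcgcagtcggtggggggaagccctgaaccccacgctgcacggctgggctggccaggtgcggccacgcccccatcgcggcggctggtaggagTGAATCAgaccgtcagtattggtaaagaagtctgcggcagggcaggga
Both strands were searched, and no match overlapped a match to another motif in these 4 stretches. CACCC was present in 52.1% of all 32536 distinct promoter stretches of this length, GCCNNNGGC in 13.8% and TGANTCA in 6.73%. The 7 factors with an entry had 9 stretches, since Grhl1 and Tfap2a had more than 1 start, and 4 of the 9 held CACCC, 4 held GCCNNNGGC and 1 held TGANTCA. None of the 9 held the grainyhead palindrome AACCGGTT, the GATA pattern AGATAA, the Prdm1 core GAAAGT, the PPAR half-site AGGTCA or the TATA box TATAAA, which were present in 0.117%, 9.97%, 12.4%, 14.0% and 12.3% of all promoters.

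The first comparison asked how the factors differed between psoriasis-like and control skin. All 10 rose in the IMQ group relative to control, from 1.61-fold for Trp63 to 14.3-fold for Grhl3, and in none of them did the 3 IMQ libraries overlap the 3 control libraries. The factors with the largest rises were Grhl3, Ovol1, Prdm1, Ppard and Klf4. Of all 15976 genes tested, 24.1% were called higher (edgeR quasi-likelihood test, Benjamini-Hochberg adjusted p under 0.05 and absolute log2 fold change over 0.58), and 31.6% were higher without overlap. Factors and gene lists were chosen with earlier results of these data known, so such shares give a scale and no test of enrichment. The median log2 fold change was 1.91 over the 10 factors and -0.06 over all genes tested. With scaling by library totals alone these medians were 1.45 and -0.51, so all log2 fold changes of this comparison move with the scaling.

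Levels are given as CPM, the reads of a gene scaled to the library's counted reads with a TMM factor between libraries. Grhl3 was at 20.1, 20.7 and 36.2 CPM in control libraries 1, 2 and 3, at 318, 422 and 315 CPM in the IMQ libraries and at 268, 164 and 149 CPM in the LYS libraries. All 3 IMQ libraries and all 3 LYS libraries were above every control library, and the IMQ libraries were above every LYS library. Grhl3 rose by a log2 fold change of 3.84 (SE 0.28, edgeR adjusted p = 3.0e-05) between control and IMQ. Ovol1 was at 18.2, 18.3 and 29.6 CPM in control, 172, 283 and 253 CPM in IMQ and 171, 125 and 93.3 CPM in LYS. The groups lay in the same order without overlap, although LYS library 1 came close to IMQ library 1. Ovol1 rose by 3.48 (SE 0.27, edgeR adjusted p = 3.9e-05). Prdm1 was at 23.0, 18.6 and 34.0 CPM in control, 194, 271 and 265 CPM in IMQ and 139.7, 113 and 71.9 CPM in LYS. Its 3 groups were also apart, with LYS in between. Prdm1 rose by 3.33 (SE 0.26, edgeR adjusted p = 3.8e-05).

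Ppard was at 37.6, 39.6 and 40.4 CPM in control, 195, 265 and 209 CPM in IMQ and 180.3, 151 and 102 CPM in LYS. Its control libraries were the closest set of all, and both treated groups were above them. Ppard rose 5.93-fold (log2 2.57, SE 0.15, edgeR adjusted p = 1.4e-05). Klf4 was at 253, 236 and 288 CPM in control, 828, 1167 and 1041 CPM in IMQ and 612, 483 and 453 CPM in LYS. The 3 groups did not overlap, and every LYS library was nearer to control than any IMQ library was. Klf4 rose 4.07-fold (log2 2.03, SE 0.18, edgeR adjusted p = 7.1e-05).

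**Figure D1:**
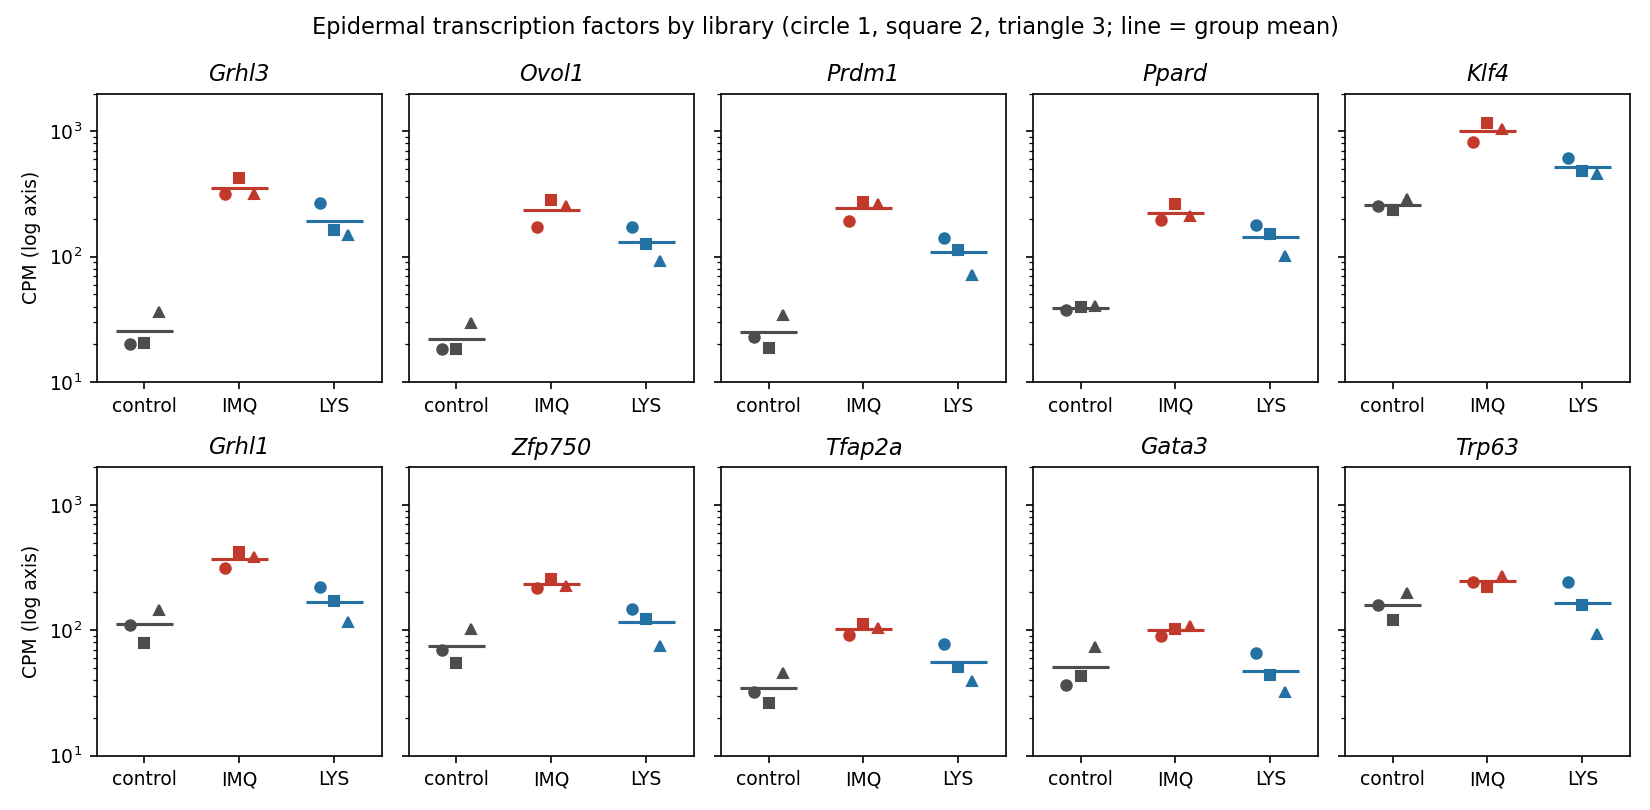
Level of each factor (CPM, log axis) in the control, IMQ and LYS groups; circles, squares and triangles are libraries 1, 2 and 3, and lines are group means. The IMQ libraries lie above the control libraries for all 10 factors, and the LYS libraries lie apart from control for Grhl3, Ovol1, Prdm1, Ppard and Klf4 but not for the other 5.

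Grhl1, Zfp750 and Tfap2a formed a middle group with rises of 3.47-fold, 3.22-fold and 3.06-fold. Grhl1 was at 109.6, 79.6 and 145 CPM in control, 315, 420.5 and 380.0 CPM in IMQ and 219.8, 169 and 116 CPM in LYS. Zfp750 was at 69.0, 54.9 and 102 CPM in control, 217, 257 and 226 CPM in IMQ and 148, 123 and 75.2 CPM in LYS. Tfap2a was at 32.3, 26.3 and 45.9 CPM in control, 91.7, 112 and 103 CPM in IMQ and 78.2, 50.8 and 39.6 CPM in LYS. In each of the 3 genes the IMQ libraries stood above all others, and LYS library 3 fell within the control range. Their log2 fold changes from control to IMQ were 1.80 (SE 0.23) for Grhl1, 1.69 (SE 0.23) for Zfp750 and 1.61 (SE 0.21) for Tfap2a. The edgeR adjusted p-values were 3.8e-04, 4.5e-04 and 3.6e-04 in the same order.

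Gata3 and Trp63 had the smallest rises. Gata3 was at 36.3, 42.8 and 73.7 CPM in control, 89.3, 102 and 108 CPM in IMQ and 66.3, 43.7 and 32.2 CPM in LYS. The IMQ libraries were above all others, and the LYS libraries overlapped control. Gata3 rose 2.04-fold (log2 1.03, SE 0.25, edgeR adjusted p = 0.00837). With scaling by library totals alone the log2 fold change was 0.56 and the call was lost (edgeR adjusted p = 0.0878, the highest of all alternatives, which went down to 4.2e-04). Trp63 was at 159, 120.2 and 197 CPM in control, 243, 223 and 272 CPM in IMQ and 241, 160.2 and 93.5 CPM in LYS. The IMQ libraries were above control, and the LYS libraries spread over both groups. Trp63 rose 1.61-fold (log2 0.69, SE 0.19, edgeR adjusted p = 0.0147), and this call was the least stable of the 10. It held in 8 of 15 alternatives, with edgeR, DESeq2 or limma adjusted p from 0.00278 to 0.353, and it was lost without control library 1 (adjusted p = 0.0518), without control library 2 (log2 0.52), with library totals alone (log2 0.23) and with all 9 libraries in the fit (adjusted p = 0.0847).

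Markers of other cell types that use some of these factors were measured beside them, and their part in the rises was not tested. The summed level of 5 T cell markers, which bear on Gata3, was 11.4 to 14.4 CPM in control and 10.5 to 15.3 CPM in IMQ, with 3 of the 5 called higher and 2 called lower and a median log2 fold change of 0.95 over the list. The summed level of 4 plasma cell markers, which bear on Prdm1, was 4.07 to 5.35 CPM in control and 0.788 to 2.78 CPM in IMQ. Of these 4, 2 were tested, none was called higher and 1 was called lower, and 1 marker had at most 3 counts in every library of each group. The summed level of 6 inner root sheath markers of the hair follicle, where Gata3 is also used, was 2553 to 5433 CPM in control and 27.4 to 32.4 CPM in IMQ, and all 6 were called lower. Endothelial markers and macrophage and dendritic cell markers, whose cells also use Klf4, summed to 398 to 566 CPM and 1330 to 2163 CPM in control and to 158 to 320 CPM and 890 to 1209 CPM in IMQ. Of the 6 endothelial markers 5 were called lower, and of the 6 macrophage and dendritic cell markers 2 were called lower and 1 higher.

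Levels of different genes were compared on the FPKM scale, which divides the reads of a gene by its length and the library's counted reads. In control skin Klf4 stood above the other factors at 96.2 ± 14.1 FPKM (SD, n = 3), and its libraries did not overlap those of the next gene, Zfp750 at 26.5 ± 9.65 FPKM. The following 8 factors descended without a further gap between neighbours, from Grhl1 at 22.9 ± 7.71 FPKM through Trp63 at 21.5 ± 6.10 FPKM, Gata3 at 14.6 ± 6.29 FPKM, Grhl3 at 10.5 ± 4.17 FPKM, Tfap2a at 8.09 ± 2.68 FPKM, Ovol1 at 7.19 ± 2.44 FPKM and Ppard at 5.88 ± 0.382 FPKM to Prdm1 at 5.15 ± 1.84 FPKM. The order was different in the IMQ group. Klf4 led at 284 ± 30.9 FPKM, and Grhl3 moved from rank 6 to rank 2 at 108 ± 16.0 FPKM. Zfp750 at 62.1 ± 4.05 FPKM, Ovol1 at 57.8 ± 10.5 FPKM and Grhl1 at 57.6 ± 4.77 FPKM overlapped each other. Prdm1 followed at 37.3 ± 4.20 FPKM, having been last in control. Ppard at 25.4 ± 3.23 FPKM, Trp63 at 25.3 ± 2.91 FPKM and Gata3 at 21.6 ± 0.787 FPKM overlapped their neighbours, and Tfap2a was last at 17.9 ± 0.803 FPKM. Neighbours were apart after Klf4, Grhl3, Grhl1, Prdm1 and Gata3, and the number of such gaps rose from 5 to 8 without IMQ library 2. A range over fewer libraries cannot be wider, so these counts tend to rise whichever library is left out.

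In the LYS group the order again began with Klf4 at 174 ± 22.0 FPKM and Grhl3 at 70.8 ± 21.1 FPKM, which were apart from each other and from the rest. Ovol1 at 38.1 ± 10.1 FPKM, Zfp750 at 36.5 ± 10.6 FPKM and Grhl1 at 31.1 ± 8.50 FPKM came next. Trp63, Prdm1 and Ppard were at 20.0 ± 8.31, 19.8 ± 5.66 and 19.7 ± 4.80 FPKM. Gata3 at 12.2 ± 4.01 FPKM and Tfap2a at 11.7 ± 3.70 FPKM closed the order. None of the neighbours from Ovol1 down to Tfap2a were apart over the 3 libraries. The LYS libraries were ordered alike in all factors, and LYS library 1 was highest and LYS library 3 lowest of the group in 10 of 10 factors on the CPM scale. Gaps between neighbours numbered 2 with all 3 LYS libraries, 4 without LYS library 1 and 5 without LYS library 3. Fewer libraries cannot widen a range, so these rises are not particular to the libraries named. In control, library 3 was highest in 10 of 10 factors, and the 1 gap became 5 gaps without it. The median coefficient of variation of CPM over the 10 factors was 29.6% in control, 15.4% in IMQ and 31.8% in LYS.

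**Figure D2:**
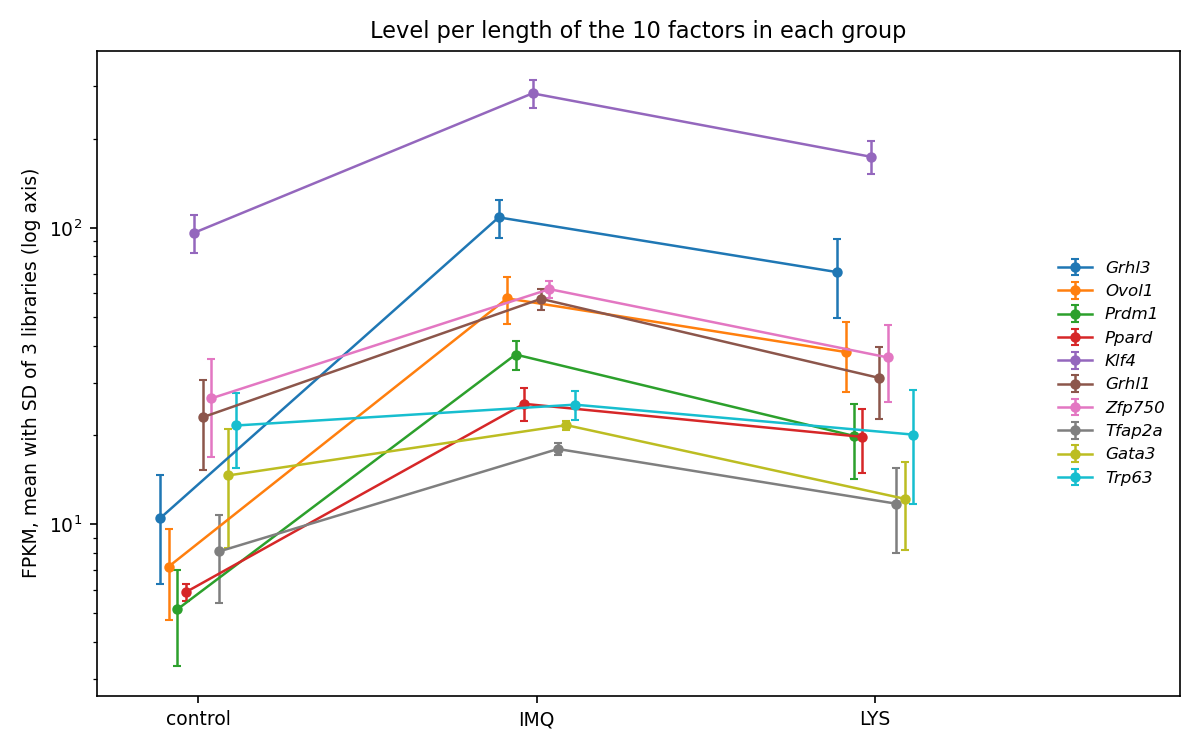
Mean level per length (FPKM, log axis) of each factor in the control, IMQ and LYS groups, with bars for the SD of 3 libraries; lines join the means of a gene. Klf4 is highest in every group, and Grhl3, Ovol1 and Prdm1 pass Trp63 between control and IMQ. The mean of Ppard also passes that of Trp63, by a small margin (25.4 and 25.3 FPKM in IMQ).

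The second comparison asked how far the factors in LYS-treated lesional skin stood from control skin. Grhl3, Ovol1, Prdm1, Ppard and Klf4 were called higher in the LYS group than in control, and the other 5 were not called. The control libraries are those of the first comparison, so the results are not independent. The 5 called factors were the factors whose LYS libraries did not overlap control. Of 16003 genes tested, 15.1% were called higher and 25.0% were higher without overlap. The median log2 fold change was 0.86 over the 10 factors and -0.01 over all genes, and it was 0.69 and -0.15 with library totals alone.

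Grhl3 was 7.64-fold higher in LYS than in control (log2 2.93, SE 0.34, edgeR adjusted p = 0.00136). Ovol1 was 5.97-fold higher (log2 2.58, SE 0.30, edgeR adjusted p = 0.00142). Prdm1 was 4.34-fold higher (log2 2.12, SE 0.32, edgeR adjusted p = 0.00337). These were the 3 largest differences of the 10. Ppard was 3.74-fold higher (log2 1.90, SE 0.23, edgeR adjusted p = 0.00153) and Klf4 2.01-fold higher (log2 1.01, SE 0.19, edgeR adjusted p = 0.00744). Tfap2a, Zfp750 and Grhl1 had log2 fold changes of 0.71, 0.63 and 0.61 that did not pass (edgeR adjusted p = 0.117, 0.160 and 0.156). Without LYS library 3 all 3 passed and 8 of 10 factors were called higher, while 16.7% of all genes were called higher. Trp63 and Gata3 were closest to control, with log2 fold changes of 0.08 (SE 0.36, edgeR adjusted p = 0.884) and -0.08 (SE 0.35, edgeR adjusted p = 0.872). Their sign turned in some alternatives, for Trp63 with library totals alone and for Gata3 without LYS library 3.

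The third comparison asked whether the factors differed between the LYS and IMQ groups, which differ in their labels only by the decoction, and it shares its libraries with the first and second comparisons. Every factor had a lower mean in LYS, with log2 fold changes from -0.57 for Trp63 to -1.17 for Prdm1, as had 47.1% of all genes, but none was called. The edgeR test called 0 of 15460 genes in either direction (0.0% higher and 0.0% lower), and its smallest adjusted p over all genes was 0.0591. At an unadjusted p under 0.05, 9 of the 10 factors were lower, against 15.9% of all genes. DESeq2 called 8 factors lower, against 9.18% of the genes it tested. The LYS libraries lay below the IMQ libraries without overlap in 9 factors, against 19.3% of all genes, and only Trp63 overlapped. The median log2 fold change was -0.91 over the factors and 0.04 over all genes, and it was -0.66 and 0.29 with library totals alone.

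Prdm1 (log2 -1.17, SE 0.26), Grhl1 (log2 -1.14, SE 0.25) and Klf4 (log2 -0.97, SE 0.21) shared an edgeR adjusted p of 0.0591. Gata3 (log2 -1.07, SE 0.26) and Zfp750 (log2 -1.01, SE 0.25) had edgeR adjusted p-values of 0.0605 and 0.0606. Grhl3, Tfap2a and Ovol1 each had a log2 fold change of -0.86, with edgeR adjusted p of 0.0756, 0.0706 and 0.0814. The 2 factors with the smallest differences were Ppard at -0.62 (SE 0.23, edgeR adjusted p = 0.112) and Trp63 at -0.57 (SE 0.32, edgeR adjusted p = 0.236). The count of calls changed with single libraries, and also with the test, the filter and the libraries in the fit. Without LYS library 1, the library of this group nearest to IMQ in all 10 factors, edgeR called 10 factors and 11.9% of all genes lower. Without IMQ library 1, the lowest of its group in 8 of 10 factors, it called Klf4, Grhl1 and Prdm1 and 5.03% of all genes lower. Without any other library it called none, and with all 9 libraries in the fit it called 8 factors and 8.62% of all genes lower.

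**Figure D3:**
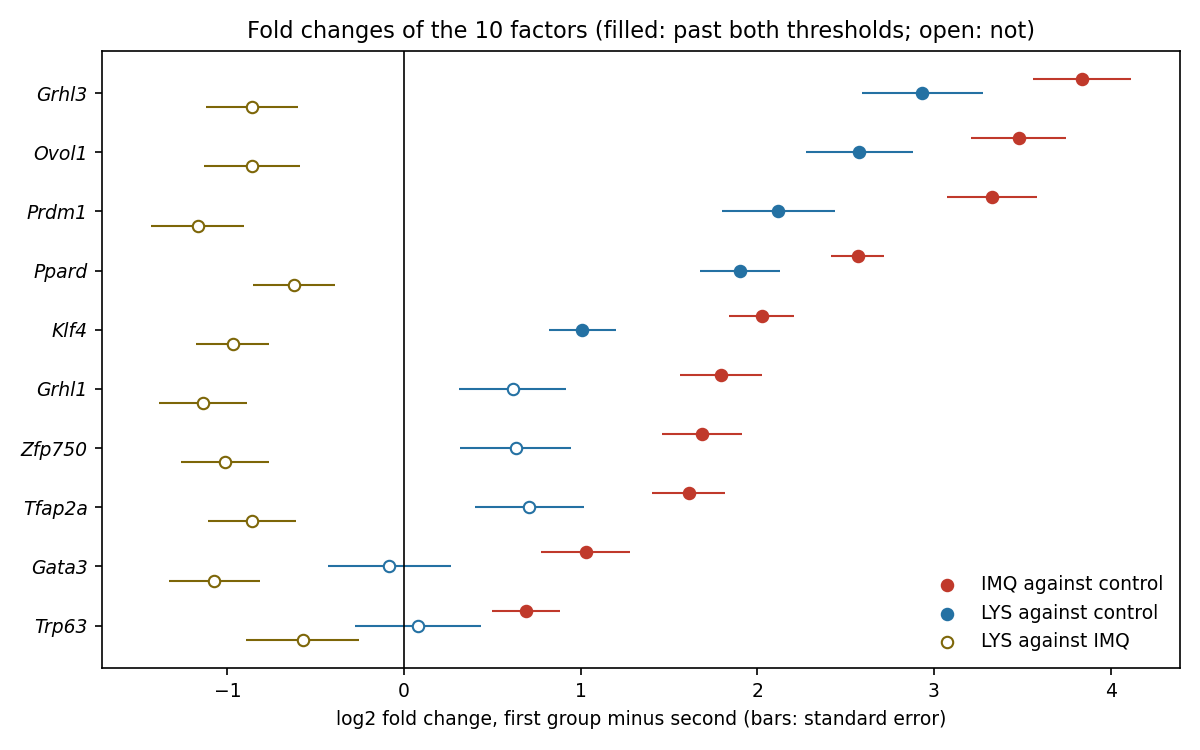
Log2 fold change of each factor in the 3 comparisons, first group minus second, with bars for the standard error; filled points passed both thresholds and open points did not. All 10 factors are filled for IMQ against control, 5 for LYS against control and none for LYS against IMQ.

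The level of epithelial markers differed between the groups as well. The summed CPM of 8 genes found across epithelial cells (Cdh1, Esrp1, Esrp2, Dsp, Jup, Perp, Cldn1 and St14) was 2916 ± 847 in control (range 2144 to 3822), 11983 ± 1210 in IMQ (10586 to 12694) and 6208 ± 2336 in LYS (4289 to 8809; SD, n = 3 each). All 8 were called higher in IMQ than in control, with a median log2 fold change of 2.06, and 3 of 8 were called higher in LYS than in control (median 1.04). None was called between LYS and IMQ (median -0.92). Perp, which is also listed below among the genes that p63 controls, was a large part of the sum. Its group means were 990 CPM in control, 4434 CPM in IMQ and 2151 CPM in LYS. Each factor was therefore also expressed as log2 of its CPM over this sum in the same library. Groups were compared by an exact two-sided permutation test over libraries, in which 3 against 3 cannot give a p below 0.1.

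Relative to epithelial markers, the factors split into groups between control and IMQ. Grhl3, Ovol1 and Prdm1 were higher in IMQ without overlap, by 1.75, 1.36 and 1.23 on the log2 scale (exact permutation p = 0.1 each, the smallest possible), against 4.25% of all genes. Trp63, Gata3, Tfap2a, Zfp750 and Grhl1 were lower without overlap, by differences of -1.42, -1.04, -0.49, -0.40 and -0.30 (exact permutation p = 0.1 each), and so were 89.1% of all genes. Ppard (0.42, exact permutation p = 0.3) and Klf4 (-0.12, exact permutation p = 0.7) overlapped. Thus 3 of the 10 factors exceeded the change of the epithelial markers without overlap. With Cdh1 alone as the reference, Ppard and Grhl1 joined the higher factors, which made 5 against 6.43% of all genes, and Trp63 and Gata3 stayed lower, against 82.4% of all genes.

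Between LYS and control, Grhl3, Ovol1, Prdm1 and Ppard were higher relative to epithelial markers, by 1.85, 1.49, 1.03 and 0.78 (exact permutation p = 0.1 each), against 4.51% of all genes. Gata3, Trp63, Grhl1, Zfp750 and Tfap2a were lower, by differences of -1.16, -1.09, -0.47, -0.46 and -0.39 (exact permutation p = 0.1 each), as were 55.7% of all genes. Between LYS and IMQ the differences ran from -0.20 to 0.36 and 8 of 10 factors overlapped. The exceptions were Gata3 at -0.13 and Tfap2a at 0.09 (exact permutation p = 0.1 each), against 1.05% of all genes lower and 67.9% higher. With Cdh1 alone as the reference, 4 factors were higher and 2 lower in LYS than in control (5.93% and 22.4% of all genes), and 0 were higher and 3 lower in LYS than in IMQ (46.8% and 1.9%). The 3 lower factors were Prdm1, Grhl1 and Gata3. On the CPM scale the median log2 fold change between LYS and IMQ was -0.91 for the factors and -0.92 for the epithelial markers.

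**Figure D4:**
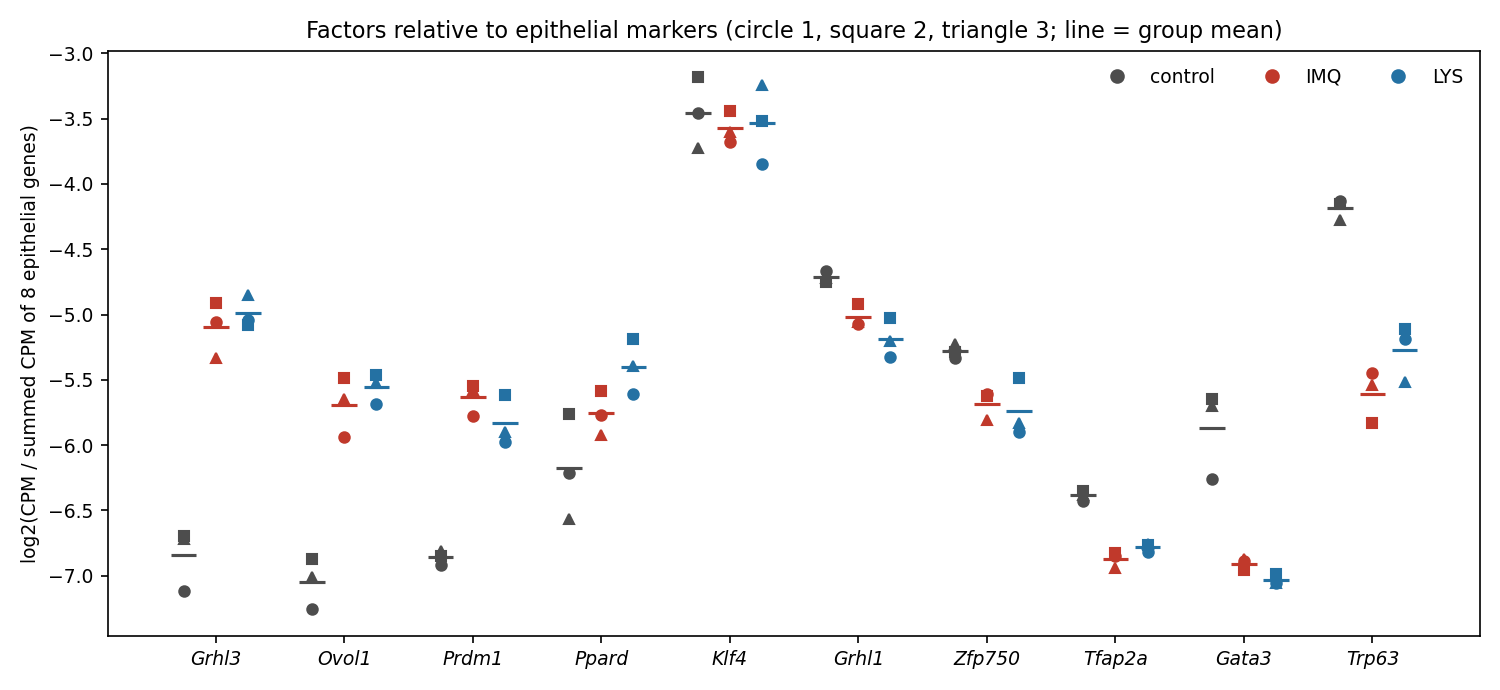
Log2 of each factor's CPM over the summed CPM of 8 epithelial markers, by library; circles, squares and triangles are libraries 1, 2 and 3, and lines are group means. Grhl3, Ovol1 and Prdm1 are higher in both treated groups than in control, Trp63, Gata3, Tfap2a, Zfp750 and Grhl1 are lower, and the IMQ and LYS points mostly overlap.

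The genes with profiles most like each factor were found by the root mean square (RMS) difference of centred log2(CPM + 1) over the 9 libraries, among 10377 genes. Small values mean similar profiles, and all of these genes share the same libraries and their group differences. Prdm1 had the closest match, with Prom2 at 0.0624 and Cers3, the ceramide synthase of the skin barrier, at 0.0695. Klf4 was nearest to Stard4, a sterol transfer protein, at 0.0740 and Rps6kb2 at 0.10. Grhl1 was nearest to the adhesion molecule Nectin4 at 0.0756 and the zinc finger factor Casz1 at 0.0851. Tfap2a was nearest to Rhbdf2 at 0.0958 and the receptor kinase Erbb2 at 0.0964. For Zfp750 the nearest genes were themselves members, Grhl1 at 0.0921 and Tfap2a at 0.121. Ovol1 followed Cdk5r1 at 0.111 and the polarity gene Pard6b at 0.113, and Ppard followed the phospholipase Plcd1 at 0.118 and 6430548M08Rik at 0.120. Trp63 was nearest to Cdh3, the P-cadherin of basal cells, at 0.141 and to Grhl2 at 0.154. Grhl3 and Gata3 had the least close matches, with Lypd3 at 0.179 and the protease Tmprss13 at 0.204 for Grhl3, and Fhdc1 at 0.184 and Sgpp2 at 0.205 for Gata3. Among the factors themselves, Ovol1 and Prdm1 were 0.216 apart and Trp63 and Grhl3, the farthest pair, 1.44 apart.

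Relatives of the factors in their gene families did not move as a group. Of 16 relatives, 13 were tested between IMQ and control, and 6 rose and 4 fell, with a median log2 fold change of -0.17 against -0.06 over all genes, of which 24.1% rose and 26.9% fell. Klf5, a Krüppel-like factor of proliferating epithelium, rose from 56.0 ± 17.7 to 283 ± 24.1 CPM (log2 2.40, SE 0.23, edgeR adjusted p = 8.6e-05), and it was at 174 ± 51.0 CPM in LYS (log2 1.65 against control, edgeR adjusted p = 0.00644). Pparg, the nuclear receptor of fat and sebaceous cells, fell from 55.4 ± 23.2 to 6.77 ± 4.08 CPM (log2 -2.95, SE 0.45, edgeR adjusted p = 7.96e-04). The summed level of 5 sebaceous gland markers moved with Pparg, from 195 to 232 CPM in control to 30.5 to 48.7 CPM in IMQ, with all 5 called lower, and their part in the result was not tested. In LYS, Pparg was at 31.9 ± 15.3 CPM (log2 2.23 against IMQ, edgeR adjusted p = 0.0603), beside a sebaceous marker sum of 65.4 to 114 CPM. Between LYS and control 3 of the 13 rose and 2 fell, against 15.1% and 12.9% of all genes, and Tfap2b fell most (log2 -1.72, edgeR adjusted p = 0.0364). None was called between LYS and IMQ, where 3 were higher and 5 lower at an unadjusted p under 0.05, against 19.3% and 15.9% of all genes, and Tfap2e had the lowest log2 fold change at -0.92 (edgeR adjusted p = 0.0724).

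Among 22 other regulators of the epidermis and its appendages, 14 rose and 2 fell in IMQ, against 24.1% and 26.9% of all genes, with a median log2 fold change of 1.28. Ehf, an ETS factor of epithelial differentiation, rose from 19.6 ± 4.96 to 436 ± 76.1 CPM (log2 4.54, SE 0.24, edgeR adjusted p = 1.1e-05). Msx2, a homeobox factor of the hair follicle, fell from 35.5 ± 8.89 to 2.73 ± 1.01 CPM (log2 -3.63, SE 0.31, edgeR adjusted p = 5.5e-05), alongside the inner root sheath markers given above, whose part in the fall was not tested. In LYS against control 7 of the 22 rose and 3 fell, against 15.1% and 12.9% of all genes. Elf3, another ETS factor, rose most (0.858 ± 0.188 to 13.5 ± 8.53 CPM, log2 3.99, edgeR adjusted p = 0.00305), and Msx2 fell most (log2 -4.32, edgeR adjusted p = 0.00142). Between LYS and IMQ none was called, while 3 were higher and 9 lower at an unadjusted p under 0.05, against 19.3% and 15.9% of all genes, and DESeq2 called 3 higher and 7 lower, against 12.8% and 9.18%. The extremes were Maf at 0.96 (edgeR adjusted p = 0.0605) and Barx2 at -1.34 (edgeR adjusted p = 0.0591).

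Genes known as targets of these factors were listed by the layer that uses them. Of 10 basal adhesion and keratin genes, which p63 controls, 7 rose and 1 fell both in IMQ and in LYS relative to control (median log2 fold change 0.95 and 0.96). Of all genes 24.1% rose and 26.9% fell in IMQ, and 15.1% rose and 12.9% fell in LYS. Krt14, the keratin of basal cells, rose from 911 ± 220 to 7353 ± 824 CPM in IMQ (log2 3.07, SE 0.28, edgeR adjusted p = 6.9e-05) and was at 6339 ± 1816 CPM in LYS (log2 2.82 against control, edgeR adjusted p = 0.00136). The gene that fell was Fras1, of the basement membrane zone, with log2 fold changes of -0.93 in IMQ (edgeR adjusted p = 0.00951) and -1.81 in LYS (edgeR adjusted p = 0.00661). Its call in IMQ was lost with limma on log2(FPKM + 1) and at an absolute log2 fold change over 1. Between LYS and IMQ none of the 10 was called, and 1 was higher and 1 lower at an unadjusted p under 0.05, against 19.3% and 15.9% of all genes. These were Itga3 at 0.38 (edgeR adjusted p = 0.101) and Perp at -1.04 (edgeR adjusted p = 0.0661), and Perp is also among the epithelial markers.

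Of 23 terminal differentiation genes, 22 rose and 1 fell in IMQ, against 24.1% and 26.9% of all genes, with a median log2 fold change of 3.49. This list too was chosen with earlier results of these data known, so its count is no test of enrichment. Sprr1b, a cornified envelope precursor, rose from 28.9 ± 9.35 to 1451 ± 142 CPM (log2 5.71, SE 0.31, edgeR adjusted p = 1.2e-05). Flg2, a filaggrin relative of the late granular layer, fell from 210.5 ± 69.0 to 76.6 ± 49.2 CPM (log2 -1.40, SE 0.45, edgeR adjusted p = 0.0252). This call was lost with all 9 libraries in the fit and without control library 1, control library 3 or IMQ library 2. In LYS 21 of the 23 were called higher than control and 1 lower, against 15.1% and 12.9% of all genes (median 2.19). Sprr1b was at 897 ± 138 CPM (log2 4.96, edgeR adjusted p = 1.9e-04) and Flg2 at 32.9 ± 22.0 CPM (log2 -2.66, edgeR adjusted p = 0.0156). All 23 had a lower mean in LYS than in IMQ (median -1.10), 21 of them at an unadjusted p under 0.05 (15.9% of all genes) and 20 by DESeq2 (9.18%), and none was called by edgeR. Lor, the loricrin gene of the cornified envelope, had the largest difference, 6549 ± 3044 CPM in IMQ and 1861 ± 959.8 CPM in LYS (log2 -1.81, edgeR adjusted p = 0.0759).

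The 8 lipid genes activated by PPAR receptors did not rise with Ppard as a list. In IMQ 1 rose and 4 fell, against 24.1% and 26.9% of all genes (median log2 fold change -0.65). Fabp5, the epidermal fatty acid-binding protein, rose from 236 ± 26.2 to 3521 ± 329 CPM (log2 3.96, SE 0.21, edgeR adjusted p = 1.1e-05). Angptl4 fell from 199 ± 59.9 to 13.9 ± 15.5 CPM (log2 -3.76, SE 0.72, edgeR adjusted p = 0.00249). In LYS against control 1 was called higher and 3 lower, against 15.1% and 12.9% of all genes (median -0.45), with Fabp5 at 2.97 (edgeR adjusted p = 4.9e-04) and Angptl4 at -2.45 (edgeR adjusted p = 0.00255). Between LYS and IMQ none was called, Angptl4 was at 1.38 (edgeR adjusted p = 0.227) and Fabp5 at -0.94 (edgeR adjusted p = 0.0644). Of 5 genes known to be repressed by Ovol1 or Prdm1, 1 rose and 1 fell in IMQ, a share near that of all genes in each direction (24.1% and 26.9%, median -0.20). Myc, a driver of growth, was at 35.5 ± 5.14 CPM in control and 55.2 ± 4.06 CPM in IMQ (log2 0.70, SE 0.14, edgeR adjusted p = 0.00303). The Myc call was lost with library totals alone, with limma, without control library 1 and at an absolute log2 fold change over 1. Zeb1, a mesenchymal factor, fell from 45.3 ± 6.06 to 13.7 ± 5.79 CPM (log2 -1.66, SE 0.27, edgeR adjusted p = 0.00123). The summed level of 6 fibroblast markers fell with it, from 21734 to 28003 CPM in control to 3205 to 10288 CPM in IMQ, with all 6 called lower, and its part in the fall of Zeb1 was not tested. In LYS Zeb1 was at 31.1 ± 11.6 CPM (log2 1.18 against IMQ, edgeR adjusted p = 0.0814), beside a fibroblast sum of 8903 to 18025 CPM. Myc was at 41.1 ± 6.48 CPM in LYS (log2 -0.42 against IMQ, edgeR adjusted p = 0.0932). Between LYS and IMQ none of the 5 was called. At an unadjusted p under 0.05, 2 were higher and 1 lower, against 19.3% and 15.9% of all genes. DESeq2 called 2 higher and 0 lower, against 12.8% and 9.18%. Between LYS and control 1 of the 5 rose and none fell, against 15.1% and 12.9% of all genes. The gene that rose was Nfatc1, named after its value was seen (log2 0.67, edgeR adjusted p = 0.00783). The extremes were Ovol2, the relative of Ovol1, at a log2 fold change of 0.70 (edgeR adjusted p = 0.374) and Zeb1 at -0.54 (edgeR adjusted p = 0.132).

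In the LYS libraries the markers of other cells stood as follows. T cell markers summed to 19.9 to 27.2 CPM, above both other groups, and 3 of 5 were called higher than control. Plasma cell markers summed to 3.72 to 31.1 CPM, and 2 of the 3 tested were called higher than control. Macrophage and dendritic cell markers summed to 1710 to 3927 CPM and endothelial markers to 312 to 634 CPM. Neutrophil markers summed to 20.0 to 26.3 CPM in control, 168 to 432 CPM in IMQ and 143 to 333 CPM in LYS. Skeletal muscle markers summed to 8679 to 9578 CPM in control, 1591 to 3917 CPM in IMQ and 3922 to 8500 CPM in LYS. Inner root sheath markers summed to 10.4 to 30.7 CPM in LYS, which overlapped their IMQ range. No marker of these lists was called between LYS and IMQ by edgeR, which called 0 of 15460 genes there. The absence of calls therefore does not show equal levels. Median log2 fold changes of LYS against IMQ were 0.72 for T cell and 2.80 for plasma cell markers (2 of 4 tested). They were 1.38 for macrophage and dendritic cell, 1.11 for endothelial and 0.82 for skeletal muscle markers. Neutrophil markers had a median of -0.65, and the 1 tested of 6 inner root sheath markers was at -0.43. The part of these cells in the levels of Gata3, Prdm1 and Klf4 was not tested.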

How the data were processed

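RNA of back skin was sequenced in 9 libraries, 3 each of the control, IMQ and LYS groups. The authors deposited whole-number read counts per gene and FPKM. Per the submitters' processing notes, HISAT2, HTSeq 0.13.5 and GRCm38 were used, while options, strand setting and annotation release are not given in the sources used here. The gene length behind the deposited FPKM equalled the GENCODE M21 exon length for all 10 factors. All columns belonged to a sample.

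The quasi-likelihood test of edgeR 4.0.16 (R 4.3.3) was run on the counts after TMM scaling and the filterByExpr filter. Its p-values were adjusted over all genes tested by Benjamini-Hochberg, and a gene was called when the adjusted p was under 0.05 and log2 fold change exceeded 0.58 in size. Each fit held the 6 libraries of its 2 groups and no replicate block. Alternatives were DESeq2 1.42.0, other scalings, no filter, all 9 libraries, a log2 fold change over 1, the replicate number as a block, limma 3.58.1 on log2(FPKM + 1) or log2(FPKM + 0.1), and leaving out each library. On simulated counts in which 200 genes changed 2-fold, edgeR recovered 51.5% between IMQ and control, 8.5% between LYS and IMQ and 13% between LYS and control, with 4 false calls each. DESeq2 recovered 69.5%, 52.5% and 58%, with 43, 57 and 30 false calls. Far more than 200 genes were called between IMQ and control, and recovery after adjustment depends on the share of changed genes. These percentages are therefore not the sensitivity of the real comparisons.

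Counts of libraries in a group differed beyond sampling (chi-square over its degrees of freedom 16.9 to 100.0), and each library was taken as a replicate. Promoters are from RefSeq. Named are the 10 factors, the gene with the highest and the gene with the lowest log2 fold change of each of 6 pathway lists in each comparison, and the 2 nearest genes of each factor among those with a mean of at least 10 CPM. Listed genes with a mean under 1 CPM were not counted. The factors and lists were chosen with earlier results of these data known. Permutation tests used scipy 1.17.1 and figures matplotlib 3.10.9 in Python 3.11.15.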

Additional observations from a re-analysis of the deposited data

How the results depend on the processing

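The direction of each factor held in every alternative except for Trp63 and Gata3 between LYS and control. There the log2 fold change of Trp63 was -0.10 with library totals alone, -0.14 and -0.15 with limma on log2(FPKM + 1) and log2(FPKM + 0.1), -0.12 without control library 2 and -0.33 without LYS library 1, and it ran from -0.33 to 0.38 when a library was left out. That of Gata3 was 0.28 without control library 3 and 0.15 without LYS library 3, and it ran from -0.43 to 0.28. None of these values was past the threshold. Of 150 values of single factors per comparison, 140 kept their call between IMQ and control and 10 lost it. Between LYS and IMQ 113 kept it and 37 gained it. Between LYS and control 140 kept both call and sign, 3 gained a call, and 7 changed sign while staying uncalled. The factors called lower in LYS than in IMQ numbered 0, but 8 with DESeq2, 8 without the filter, 8 with all 9 libraries and 0 to 10 when a library was left out. The cause was not tested. Factors called higher in LYS than in control numbered 5, and 5 to 8 when a library was left out.

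Relative to Cdh1 alone in place of 8 epithelial markers, 5 factors were higher and 2 lower between IMQ and control (3 and 5), 0 were higher and 3 lower between LYS and IMQ (1 and 1), and 4 were higher and 2 lower between LYS and control (4 and 5). Leaving out a library gave 1 to 2 higher and 1 to 4 lower between LYS and IMQ. Gaps in the order of levels numbered 1 to 5 in control, 5 to 8 in IMQ and 2 to 5 in LYS, where leaving out a library cannot widen a range. Counts of all genes called higher and lower also moved. Between IMQ and control they were 3854 and 4291, but 2390 and 6854 with library totals alone and 2064 and 5270 or 2430 and 6934 with limma. Between LYS and IMQ they were 0 and 0, but 1941 and 1393 with DESeq2, 1453 and 966 without the filter, 1627 and 1413 with all 9 libraries, 1077 and 796 without IMQ library 1 and 2370 and 1892 without LYS library 1. Between LYS and control they were 2412 and 2064, but 1605 and 1305 with an absolute log2 fold change over 1, 1552 and 2088 with limma on log2(FPKM + 1), 1502 and 1077 without control library 1, 1628 and 1319 without control library 2 and 1776 and 1150 without LYS library 2.

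Replicate numbers did not pair the samples: deviations of libraries with the same number correlated at -0.363 to 0.138, and 1 of 9 pairs was over 0.1. With the number as a replicate block, 10 factors were called between IMQ and control, 0 between LYS and IMQ and 5 between LYS and control, and all genes called higher and lower between LYS and control numbered 1721 and 1405.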
